A study of Mus musculus with 2 samples.

Results

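The genes Sox2, Sox4, Sox9, Klf4, Klf5, Myc, Clu, Cd44 and Cd24a were taken by symbol as 9 of the 28692 genes in single-cell count matrices of MC38 tumour cells. MC38 is a mouse colon carcinoma line, here from tumours of C57BL/6 albino mice. Pieces of those tumours were kept in collagen in a microfluidic chip for 6 days, with either control IgG (clone 2A3) or an antibody against the T cell receptor PD-1 (aPD-1, clone RMP1-14), both at 10 µg/mL. Tumour cells were then sorted and sequenced with 10x 3′ chemistry, 1 library per antibody. Both groups share the tumour line, the strain, the chip culture and the sort, and tumour numbers per library were not given in the sources used here. Its submitters state the aim of the series as describing MC38 cells left over when PD-1 is blocked. With 1 library per group, each difference is between 2 libraries, treatment and library cannot be told apart, and no test was possible.

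Sox2, Sox4 and Sox9 encode DNA-binding factors of the SRY-related HMG box family, which hold progenitor states in many tissues, and Sox9 is active in intestinal crypts. Klf4 and Klf5 encode zinc finger factors that are found, in normal gut, mostly in differentiated and in dividing cells, respectively. Sox2, Klf4 and Myc belong to the set of factors used to reprogram fibroblasts to pluripotency, and MYC drives ribosome production and growth. Clu (the secreted chaperone clusterin), Cd44 (the hyaluronan receptor) and Cd24a (a small sialylated surface protein) are used as markers of regenerating or stem-like epithelial and tumour cells.

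Cells were barcodes with at least 5000 unique molecular identifiers (UMIs) and at most 10% mitochondrial UMIs, which gave 2198 IgG and 3356 aPD-1 cells. Median depth was 20663 UMIs in IgG and 16577 in aPD-1, and the kept cells summed to 49422640 and 61462778 UMIs. The IgG matrix held only 4351 called barcodes, whereas the aPD-1 matrix held all 737280, and 8 barcodes of kept cells occurred in both libraries. Levels are in CPM, the UMIs of a gene over all UMIs of the summed cells, on the usual scale. They are not divided by transcript length, so levels are compared between libraries and not between genes. Of 12 epithelial markers, 5 had no UMI in either library, Epcam (an epithelial adhesion molecule) had 1, and the whole list summed to 0.688 CPM (IgG) and 0.293 CPM (aPD-1). Macrophage markers summed to 30.9 and 5.42 CPM and endothelial markers to 57.4 and 20.5 CPM. At least 3 macrophage markers were seen in 8 IgG and 3 aPD-1 cells, and at least 3 endothelial markers in 24 and 4.

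The RefSeq promoter table (build GRCm38.p6) matched 4 of the 9 genes: Sox2, Sox4, Klf4 and Cd44. The 250 bases before the RefSeq start are shown for Sox2, which had the highest ratio of aPD-1 over IgG among these genes, and for Sox4 and Klf4, whose counts went together across cells. They lie at chr3:34649745-34649994 (plus strand), chr13:28953700-28953949 (minus strand) and chr4:55532476-55532725 (minus strand). Capitals mark matches on either strand to 3 short motifs. The GC box, bound by SP and KLF factors, was searched as GGGCGG. The box named for its own letters, bound by NF-Y, was searched as CCAAT. The E-box, bound by MYC with MAX and by other helix-loop-helix factors, was searched as CACGTG.
Sox2: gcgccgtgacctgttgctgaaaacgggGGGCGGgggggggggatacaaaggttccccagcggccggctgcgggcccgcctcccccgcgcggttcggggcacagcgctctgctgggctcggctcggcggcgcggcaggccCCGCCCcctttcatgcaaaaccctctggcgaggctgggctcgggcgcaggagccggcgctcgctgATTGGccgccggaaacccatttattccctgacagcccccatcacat
Sox4: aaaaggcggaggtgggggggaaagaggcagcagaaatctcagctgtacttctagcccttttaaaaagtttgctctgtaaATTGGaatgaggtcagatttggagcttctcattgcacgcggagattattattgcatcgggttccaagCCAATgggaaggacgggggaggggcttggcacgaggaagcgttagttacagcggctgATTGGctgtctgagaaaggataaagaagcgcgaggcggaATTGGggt
Klf4: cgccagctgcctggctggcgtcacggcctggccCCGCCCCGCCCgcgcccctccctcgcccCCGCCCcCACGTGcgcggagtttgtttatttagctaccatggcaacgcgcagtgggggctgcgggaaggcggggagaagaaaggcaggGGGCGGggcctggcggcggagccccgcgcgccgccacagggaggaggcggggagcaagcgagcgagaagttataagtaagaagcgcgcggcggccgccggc
Sox2 held 2 GC boxes and 1 CCAAT box, Sox4 held 4 CCAAT boxes, and Klf4 held 4 GC boxes, of which the first pair overlap by 1 base, and 1 E-box. Over the 32851 windows of the same length in the table, 32.7% held a GC box, 33.8% a CCAAT box and 6.02% an E-box. None of these 3 windows, nor that of Cd44 at chr2:102901666-102901915, held an AP-1 site (TGANTCA, 6.75% of windows), a TATA box (TATAAA, 12.4%) or the serum response element known as the CArG box (1.47%). The Cd44 window held none of the 6 motifs. In GENCODE M21 the start of Sox2 lies 410 bases downstream of the RefSeq start used here, so the Sox2 window is that of the longer transcript. The GENCODE start of Sox4 lies upstream of its RefSeq start, inside the window shown. The CCAAT match 8 to 4 bases before the RefSeq start of Sox4 is therefore within the GENCODE gene. These matches describe the letters only.

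Between the libraries, Sox2 was higher and Clu was lower with aPD-1, and the other 5 genes with enough UMIs differed by less than 1.2-fold. Of the 9 genes, 7 reached a mean of 10 CPM. A gene was counted when its ratio was at least 1.2-fold and the exact conditional 95% interval of that ratio excluded 1. That interval, like the others given, covers counting error only. By this rule 1 of the 7 was counted as higher and 1 as lower, where 6.23% and 24.3% of the 6967 genes of at least 10 CPM were. At 1.5-fold the same 2 genes were counted, where 0.531% of all genes were higher and 3.01% lower. The median log2 ratio of the 7 was -0.05, and that of all 6967 genes was -0.10, so a ratio of 1 lies above most genes. Only 32.9% of all genes had a ratio above 1, as did 3 of the 7 (Sox2, Sox9 and Cd44). UMIs of ribosomal protein genes were 32.3% of the IgG sum and 35.6% of the aPD-1 sum. With ribosomal protein and mitochondrial UMIs left out of the total, the median log2 ratio was -0.014 for all genes and 0.038 for the 7. Sox9 was then also counted as higher at 1.2-fold. What set the ribosomal share was not tested.

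**Figure D1:**
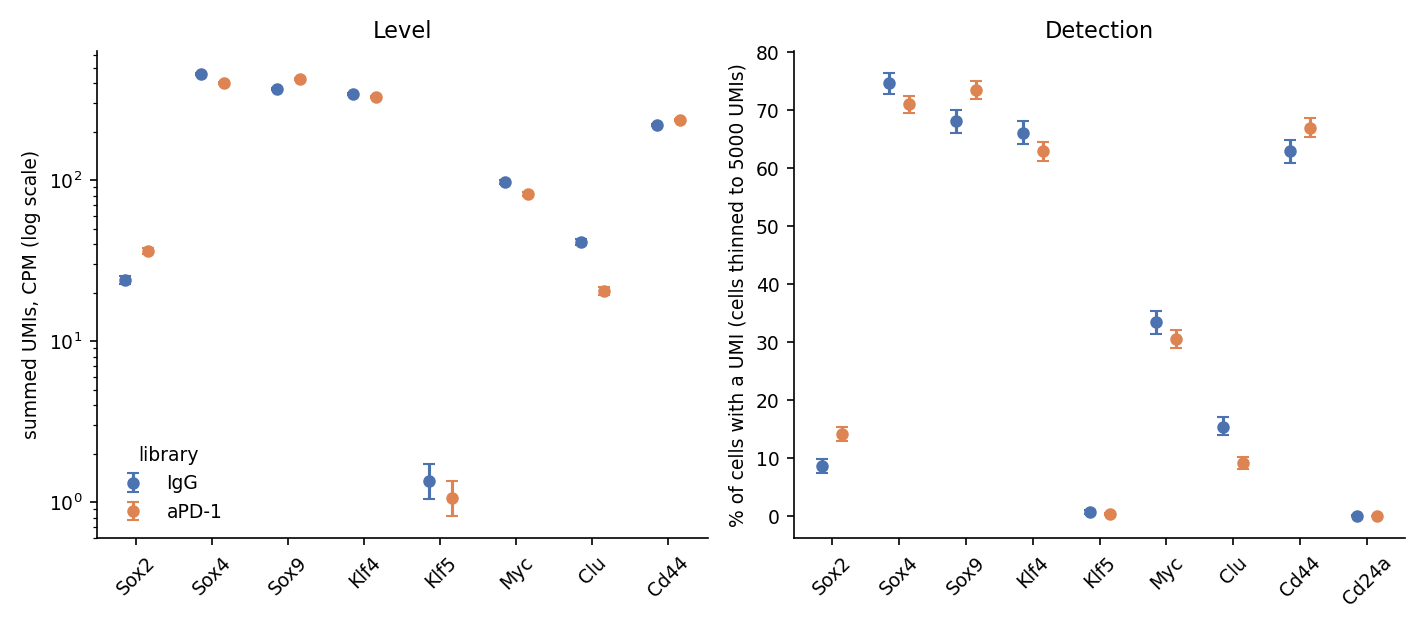
Left, the level of each gene in CPM of the summed UMIs (log scale), and right, the percent of cells with a UMI after each cell was thinned to 5000 UMIs, in the IgG and aPD-1 libraries. Bars are exact 95% counting intervals. Sox2 stood at 23.9 CPM in IgG and 36.2 in aPD-1, Clu at 41.1 and 20.4, and Cd24a, with no UMI, is drawn only on the right.

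**Figure D2:**
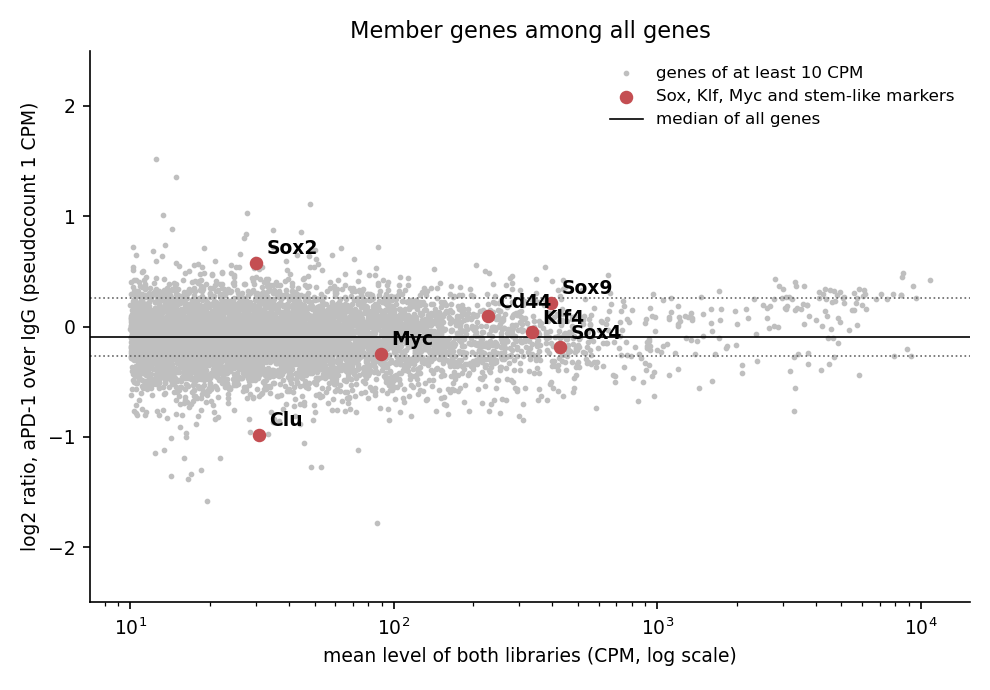
Log2 ratio of aPD-1 over IgG (pseudocount 1 CPM) against the mean level for 6967 genes, of which 3 lie beyond the vertical axis. Dotted lines mark 1.2-fold and the solid line the median of all genes. Sox2 (0.58) and Clu (-0.98) lie outside the dotted lines, and Sox4, Sox9, Klf4, Myc and Cd44 lie between them.

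Sox2 had the largest ratio of the 5 SOX genes of at least 10 CPM. It is a single gene at chr3:34650405-34652461 (GRCm38, GENCODE M21, plus strand), inside the locus of the non-coding gene Sox2ot, with no shared exon. Its level was 23.9 CPM in IgG (1180 UMIs, interval 22.5 to 25.3) and 36.2 CPM in aPD-1 (2225 UMIs, interval 34.7 to 37.7). The 2 intervals did not overlap, but they cover counting error only. The share of all genes for which this holds was not computed, so it does not set Sox2 apart. The ratio was 1.52 (interval 1.41 to 1.63), and 32 of the 6967 genes had a higher one. After each cell was thinned to 5000 UMIs to make depth equal, 8.64% of IgG cells and 14.2% of aPD-1 cells had a Sox2 UMI. Before thinning the shares were 28.2% and 34.0%. Thinned cells had a mean of 0.106 Sox2 UMIs in IgG and 0.187 in aPD-1, so the transcript was sparse in both libraries. The most Sox2 UMIs in one thinned cell was 6 in IgG and 7 in aPD-1. The variance of its counts over cells, divided by the mean, was 1.44 in IgG and 1.60 in aPD-1. That was above the value of 91.6% and 94.2% of genes.

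The higher Sox2 level was seen across cell states. Cells of both libraries were clustered together without the 9 genes, and 7 clusters had at least 50 cells in each library. No cluster met the marker rule for a cell type name. The Sox2 ratio was above 1 in 7 of these 7 clusters, and its interval excluded 1 in 6. It was 1.67 in cluster 0, led by Mxd4, Osr2 and Zbtb20, and 1.28 in cluster 1, led by the S phase genes Rrm2 and Mybl2. The exception was cluster 3, led by the hypoxia genes Ero1l, Car9 and Bnip3. There the level was 40.9 CPM in IgG and 41.1 in aPD-1 (ratio 1.01, interval 0.817 to 1.24), the highest level of any of the 7 clusters in each library. In aPD-1, however, clusters 0, 1, 4 and 5 lay close to it at 38.9, 36.15, 35.7 and 37.1 CPM. The largest ratio, 2.37 (interval 1.15 to 5.35), was in cluster 6, led by the interferon genes Mx1 and Ifit1, at 9.77 and 23.2 CPM, from 10 and 36 UMIs.

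Sox4 (chr13:28948919-28953713, minus strand) was slightly lower with aPD-1. Its level was 457 CPM in IgG (interval 451 to 463) and 401 CPM in aPD-1 (396 to 406), a ratio of 0.878 (0.862 to 0.894) that did not reach 1.2-fold. It was detected in 74.7% of thinned IgG cells and 71.0% of thinned aPD-1 cells. The ratio was below 1 in 6 of the 7 clusters. Cluster 2, led by the mitotic genes Cdc20 and Cenpe, had 459 CPM in IgG and 499 in aPD-1 (ratio 1.09, interval 1.03 to 1.15). Sox4 was lowest in cluster 1 (324 and 315 CPM) in both libraries. It was highest in cluster 6 (723 and 505 CPM), though in aPD-1 clusters 0, 2 and 5 lay close to it at 497, 499 and 481 CPM.

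Sox9 (chr11:112782224-112787760, plus strand) went the other way. Its level was 366 CPM in IgG (interval 361 to 372) and 426 CPM in aPD-1 (421 to 432), with a ratio of 1.16 (1.14 to 1.19), also short of 1.2-fold. It was seen in 68.2% of thinned IgG cells and 73.5% of thinned aPD-1 cells. The ratio was above 1 in 6 of the 7 clusters and lower in cluster 6, at 0.837 (0.726 to 0.965). By cluster, the level ran from 240.5 CPM (cluster 3) to 591 CPM (cluster 0) in IgG and from 260 to 671 CPM in aPD-1, in the same clusters.

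Of the 20 SOX genes listed, 5 reached 10 CPM. Besides Sox2, Sox12, another SOX factor, was counted as higher at 1.2-fold, at 9.35 CPM in IgG and 11.8 in aPD-1. None was counted as lower. Of all genes of at least 10 CPM, 6.23% were counted as higher and 24.3% as lower. Sox5 stood at 17.8 and 18.1 CPM, and 6 of the 20 had no UMI in either library.

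Klf4 (chr4:55527143-55532466, minus strand) differed little between the libraries and strongly between cell states. Its level was 341 CPM in IgG (interval 336 to 347) and 330 CPM in aPD-1 (325 to 334), a ratio of 0.966 (0.946 to 0.986). Thinned cells with a UMI made up 66.2% and 63.0%. In cluster 0 the level was 572 CPM in IgG and 605 in aPD-1, and in cluster 1 it was 123 and 126 CPM, so the clusters differed 4.64-fold in IgG and 4.80-fold in aPD-1. The same order was seen by cell cycle phase, called from S and G2/M gene scores. G1 cells had 480 CPM in IgG and 482 in aPD-1, S cells 192 and 180, and G2/M cells 197 and 203. Across clusters the aPD-1 over IgG ratio lay on both sides of 1, from 0.872 in cluster 6 to 1.31 in cluster 5, led by the histone gene Hist1h1b.

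Klf5 (chr14:99298691-99315036, plus strand) was detected at a low level, with 67 UMIs in IgG and 65 in aPD-1 (1.36 and 1.06 CPM). The ratio of 0.780 had an interval of 0.546 to 1.11, so no difference was detectable at this depth. It was seen in 0.682% and 0.328% of thinned cells. Of the 17 KLF genes listed, 9 reached 10 CPM, with Klf9 counted as higher (33.1 to 44.4 CPM, ratio 1.34) and Klf10 as lower (18.9 to 13.4 CPM, ratio 0.713). No other KLF gene was counted, where 6.23% of all genes of at least 10 CPM were higher and 24.3% lower. Klf2 stood at 534 and 459 CPM and Klf13 at 60.4 and 68.2 CPM, neither of which reached 1.2-fold.

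Myc (chr15:61985391-61990374, plus strand) was lower with aPD-1 by less than 1.2-fold. Its level was 96.9 CPM in IgG (interval 94.2 to 99.7) and 81.5 CPM in aPD-1 (79.3 to 83.8), a ratio of 0.841 (0.808 to 0.875). Thinned cells with a UMI were 33.4% and 30.5%. In both libraries Myc stood highest in cluster 6, at 256 and 196 CPM, and the other 6 clusters lay between 66.9 and 125 CPM in IgG and between 54.4 and 126 CPM in aPD-1. With every cell weighted equally, Myc was also counted as lower at 1.2-fold.

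Genes of MYC's dimerisation network and its targets were counted in both directions. Of 13 network genes, 8 reached 10 CPM. Mxd3 was counted as higher (9.57 to 12.5 CPM), and Mxd4 (40.6 to 27.5 CPM) and Mlx (33.9 to 26.0 CPM) as lower. Among all genes of at least 10 CPM, 6.23% were counted as higher and 24.3% as lower. Mxd3 and Mxd4 encode partners of MAX that oppose MYC. Of 36 MYC target genes, 35 reached 10 CPM, with 2 counted as higher and 4 as lower, where 6.23% and 24.3% of all genes were, and a median log2 ratio of -0.06. Dctpp1, a nucleotide pyrophosphatase (98.3 to 128 CPM), and Odc1, the first enzyme of polyamine synthesis (128 to 163 CPM), were the higher pair. Ddx18, an RNA helicase of ribosome assembly (175 to 128 CPM), and Nop58, a nucleolar protein (204 to 159 CPM), were the lowest.

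Clu (chr14:65968483-65981547, plus strand) had the largest difference of the 9 genes. Its level was 41.1 CPM in IgG (2033 UMIs, interval 39.4 to 43.0) and 20.4 CPM in aPD-1 (1252 UMIs, 19.3 to 21.5), a ratio of 0.495 (0.461 to 0.532). Of the 6967 genes, 20 had a lower ratio. Thinned cells with a Clu UMI were 15.5% in IgG and 9.15% in aPD-1, and 41.5% and 23.9% before thinning.

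One cluster departed from this. In 6 of the 7 clusters Clu was lower with aPD-1, with ratios from 0.419 (cluster 0) to 0.670 (cluster 1). In cluster 4, led by Lbp, Gsn and Dcn, it was 60.8 CPM in IgG and 73.3 in aPD-1, a ratio of 1.21 (interval 1.04 to 1.40). That cluster had the highest Clu level in both libraries and comprised 17.9% of the IgG and 4.92% of the aPD-1 cells. When the aPD-1 levels of the clusters were weighted by the IgG shares of UMIs, Clu stood at 28.0 CPM in aPD-1 and its ratio was 0.682. Summed fibroblast markers were 1229 CPM in IgG and 877 in aPD-1, and 6 of the 7 of at least 10 CPM were counted as lower, where 24.3% of all genes were. Their part in the Clu difference was not tested. Without cluster 4, Clu was still counted as lower at 1.5-fold. At least 3 of the 10 fibroblast markers were seen in 1840 of 2198 IgG cells and 2560 of 3356 aPD-1 cells.

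Cd44 (chr2:102811141-102901665, minus strand) was nearly level between the libraries and between states. It stood at 220.1 CPM in IgG (interval 216 to 224) and 235 CPM in aPD-1 (231 to 239), a ratio of 1.07 (1.04 to 1.10). Thinned cells with a UMI made up 62.9% and 67.0%. The highest of the 7 clusters exceeded the lowest by 1.19-fold in IgG and 1.38-fold in aPD-1, the smallest span of the 7 genes. By cluster the ratio ran from 0.883 (cluster 6, interval 0.740 to 1.05) to 1.31 (cluster 5, 1.16 to 1.47).

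Cd24a (chr10:43578284-43584265, plus strand) had 0 UMIs in all 5554 kept cells. A count of 0 allows up to 0.0607 CPM (IgG) and 0.0488 CPM (aPD-1), taken as 3 UMIs of each sum, or at most 0.136% and 0.0894% of cells with a UMI, taken as 3 of the cells. The gene was present in both matrices, since other barcodes of at least 1000 UMIs held 1 UMI in each library. Whether the counting step kept all reads of this gene was not tested.

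Among gene groups named with these markers, the regenerating gut, hyaluronan and surface marker lists had more genes lower than higher with aPD-1, as did all genes. The pluripotency list, of which 5 genes reached 10 CPM, had the reverse. Of 10 regenerating and fetal gut genes of at least 10 CPM, 5 were counted as lower, among them Clu, Anxa1 (390 to 291 CPM) and Ly6a (77.7 to 60.7 CPM), a surface antigen of mouse progenitor cells. The 1 counted as higher was Tnfrsf12a, the TWEAK receptor (184 to 261 CPM, ratio 1.42). Of 12 hyaluronan and CD44 partner genes 6 were lower and none higher. Has2, which makes hyaluronan, stood at 23.4 CPM in IgG and 12.2 in aPD-1, and Tnfaip6, which binds it, at 20.5 and 10.4 CPM, while Msn, which links CD44 to actin, stood at 155 and 172 CPM. Of 6 surface and enzyme markers of stem-like cells 3 were lower, including the tetraspanin Cd9 (320 to 185 CPM), and none higher. Of 24 Wnt and crypt genes only Ctnnb1, Lrig1 and Bmi1 reached 10 CPM, and the crypt stem cell receptor Lgr5 had 6 and 5 UMIs. Of 16 pluripotency genes, 5 reached 10 CPM, with Sox2 and Tbx3 (27.6 to 36.9 CPM) counted as higher, and 7 had no UMI. These lists share members with the 9 genes and with each other, and their counts are set against the 6.23% and 24.3% of all genes given above.

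**Figure D3:**
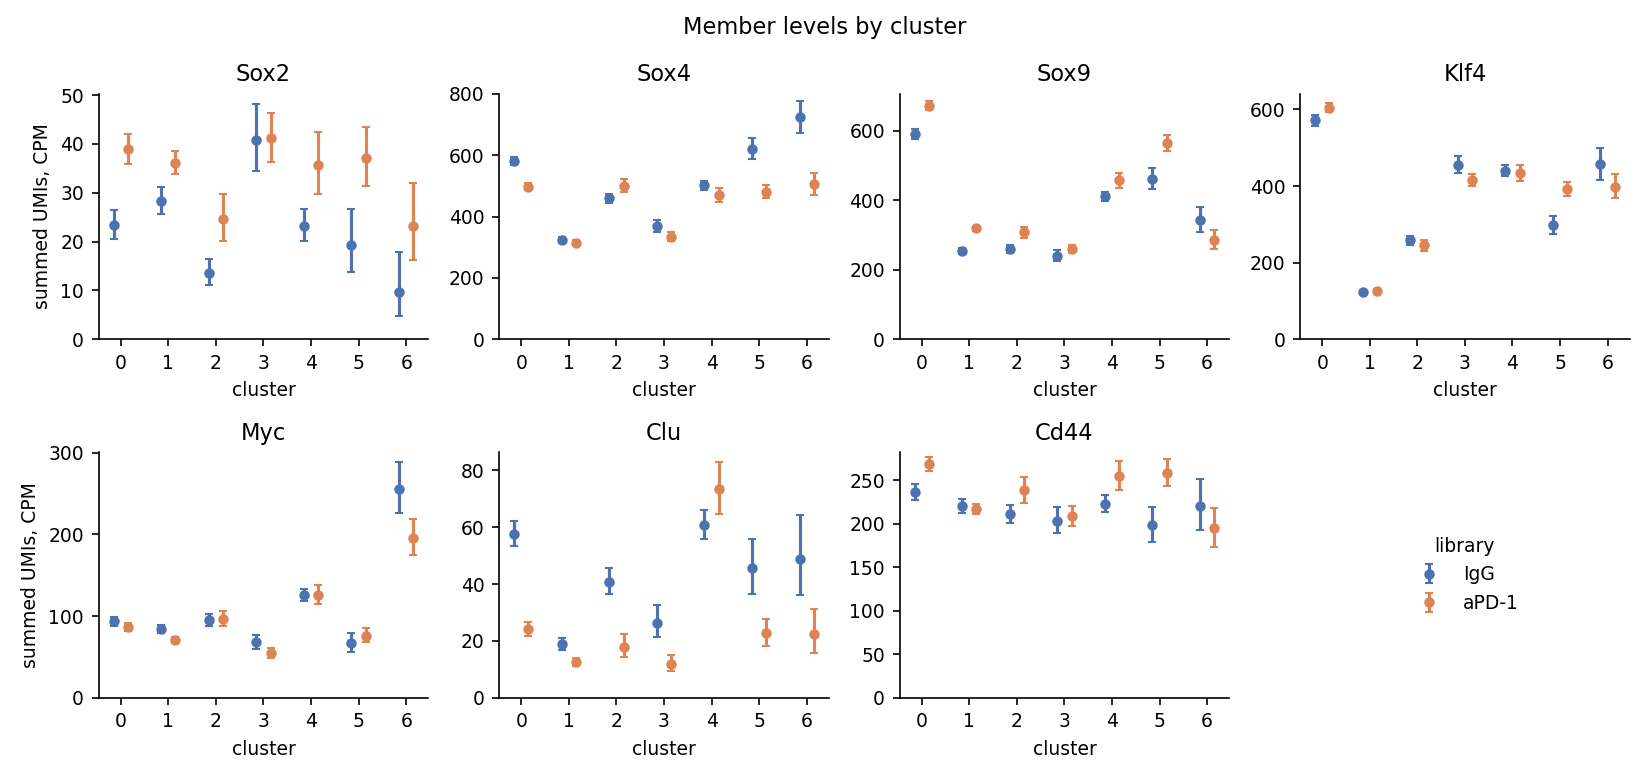
Level (CPM, linear axes from 0) of the 7 genes of at least 10 CPM in the 7 clusters with at least 50 cells of each library. Points are the summed cells of a library and bars exact 95% Poisson intervals. Klf4 was lowest in cluster 1 and highest in cluster 0, Myc stood out in cluster 6, and Clu was higher in aPD-1 than in IgG only in cluster 4.

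Detection was set beside that in macrophage-marked barcodes and in near-empty droplets. Barcodes with at least 3 macrophage markers in IgG (128 barcodes, median 1294 UMIs, thinned to 1000 UMIs) had a Sox9 UMI in 2.34%, beside 28.1% of the other kept cells thinned alike (median 20663 UMIs before thinning). Sox4 was seen in 5.47% against 35.8%, Klf4 in 10.2% against 27.5%, Myc in 2.34% against 9.13%, and Cd44 in 11.7% against 17.6%. For Sox2 (0% against 2.37%) and Clu (0.781% against 4.06%) the shares were low in both, and Cd44 is known to be expressed by macrophages too. Free RNA could be read only in aPD-1, from 515790 barcodes under 100 UMIs. There Sox9 stood at 393 CPM, Sox4 at 234, Klf4 at 174, Cd44 at 158, Myc at 93.3, and Sox2 and Clu at 18.4 CPM each. Myc was higher in the free RNA than in the aPD-1 cells (93.3 against 81.5 CPM, a ratio of 1.14). Sox9 and Clu in the free RNA stood at 0.922 and 0.904 of their level in cells, and Sox2, Sox4, Klf4 and Cd44 at 0.509 to 0.670. IgG has no such barcodes, so the part of free RNA in the ratios was not tested.

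The variance of counts over cells, divided by the mean, was largest for Sox4, Sox9 and Klf4. These also had the most UMIs per thinned cell of the 9 genes (2.51, 2.01 and 1.96 in IgG, beside 0.106 for Sox2 and 0.212 for Clu). After thinning to 5000 UMIs, the variance of Klf4 counts over cells was 3.32 times the mean in IgG and 3.46 times in aPD-1, of Sox4 3.20 and 3.23 times, and of Sox9 2.95 and 2.87 times. At least 97.9% of genes had a lower value in each library, and the median of genes was 1.07 in IgG and 1.06 in aPD-1. This measure can rise with the level of a gene, and the genes were not matched for level. The order therefore does not show which gene varied most apart from its level. Most cells had UMIs of 3 or 4 of the 9 genes (27.7% and 28.0% of IgG cells, 28.5% and 28.2% of aPD-1 cells). None of the 9 was seen in 36 IgG and 57 aPD-1 cells, and the most seen together was 7, in 6 and 10 cells.

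Sox4, Sox9 and Klf4 formed the group that went together across cells. Pearson's r was computed over the 2198 and 3356 thinned cells on log counts per 10000. It describes cells that share a library and has no test, and an r under 0.1 is read as no finding. Of 36 pairs, 28 had both genes detected, and 3 reached 0.1 in both libraries. Sox9 with Klf4 had r = 0.30 in IgG and 0.23 in aPD-1, Sox4 with Klf4 0.20 and 0.14, and Sox4 with Sox9 0.19 and 0.11. After thinning, each of these genes still fell with the log of the cell's UMIs before thinning. That r was -0.18 in IgG and -0.31 in aPD-1 for Klf4, -0.14 and -0.18 for Sox9, and -0.12 and -0.14 for Sox4. Its part in the pairs was not tested. Cells with a Klf4 UMI had 480 CPM of Sox9 in IgG and 546 in aPD-1, beside 252 and 348 CPM in cells without one. These CPM are means over thinned cells, each cell weighted equally, unlike the levels of summed cells given above. The count of pairs sat near the threshold. Sox4 with Sox9 was lost, leaving 2 pairs, with at least 10000 UMIs per cell, after thinning to 2000 UMIs, and given the S and G2/M scores (partial r of 0.17 in IgG and 0.089 in aPD-1). In the other direction, another random thinning, added after the data were seen, gave 4 pairs with Sox4 and Myc as the fourth, and unthinned cells, which differ in depth, gave 12.

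**Figure D4:**
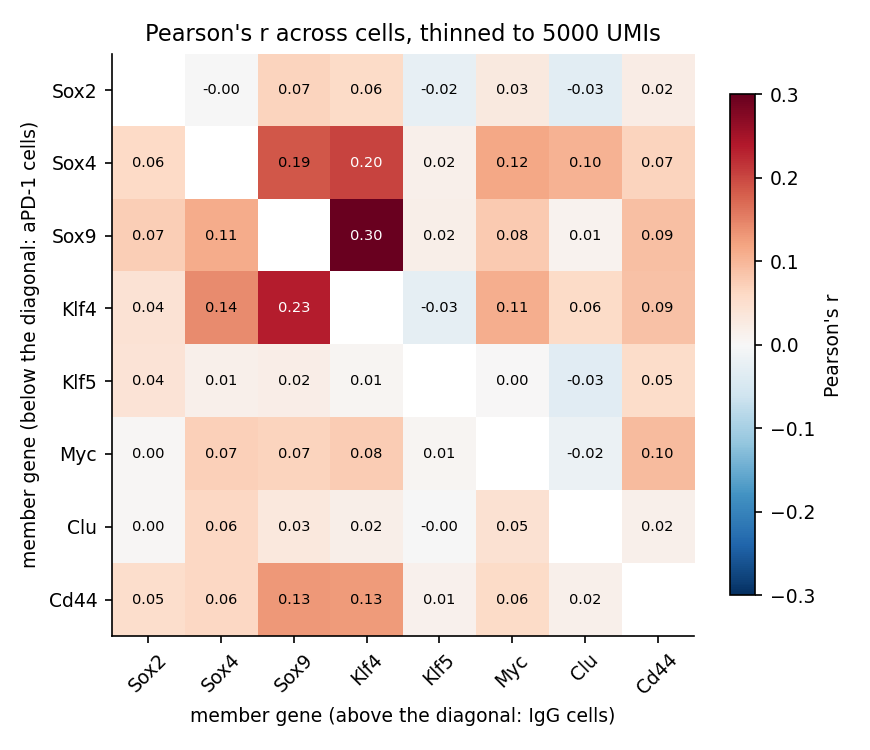
Pearson's r between 8 genes across cells thinned to 5000 UMIs, with IgG cells above the diagonal and aPD-1 cells below it, and Cd24a left out for want of UMIs. The values among Sox4, Sox9 and Klf4 are the darkest, up to 0.30 in IgG for Sox9 with Klf4.

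The nearest genes of this group across the transcriptome included immediate early genes, which switch on quickly after a stimulus, and genes outside the immediate early list, such as Malat1 and Trib1. For each gene the 3 partners with the highest r in the weaker library were taken. For Klf4 these were Malat1, a nuclear non-coding RNA (0.38 in IgG, 0.43 in aPD-1), Jund (0.38, 0.37) and Klf2 (0.35, 0.37). Sox4 led with Jun (0.29, 0.25), Klf6 (0.25, 0.21) and Fosb (0.23, 0.19), and Sox9 with Trib1, a pseudokinase (0.30, 0.30), Jund (0.26, 0.24) and Ier5 (0.25, 0.24). Of all genes, 2.45% reached 0.1 with Klf4 in both libraries, 1.45% with Sox9 and 0.632% with Sox4. The lowest partner of Klf4 was Hmgb2, a chromatin protein of dividing cells (-0.29 and -0.30).

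For the other genes few partners reached 0.1 in both libraries. Myc (0.244% of genes) led with Cyr61 (0.19, 0.19), Jun (0.18, 0.17) and Plk2 (0.17, 0.16). Clu (0.201%) led with the related MHC class I genes H2-K1 (0.18, 0.15) and H2-D1 (0.19, 0.14), and with the ubiquitin gene Ubb (0.14, 0.16). Whether H2-K1 and H2-D1 shared reads was not tested. Cd44 (0.158%) led with the kinase gene Sgk1 (0.14, 0.15), Tnfrsf12a (0.13, 0.13) and Trib1 (0.12, 0.12). For Sox2 no gene (0%) reached 0.1, and its nearest, Btg1, had 0.10 in both when rounded (0.095 and 0.098 before). Sox2 had a UMI in only 8.64% and 14.2% of thinned cells, and Clu in 15.5% and 9.15%. Counts this sparse limit r, so a low r does not show that these genes vary apart from others. In unthinned cells, which differ in depth, Sox2 reached 0.1 in both libraries with Sox9 and with Cd44.

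The coexpression held inside clusters to different degrees. Over the 7 clusters in 2 libraries, which give 14 values, Sox9 with Klf4 reached 0.1 in 13 (0.06 to 0.54), Sox4 with Klf4 in 9 and Sox4 with Sox9 in 6. The pair of Sox4 with Jun and that of Klf4 with Klf2 reached it in 14 of 14.

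The immediate early genes differed between the libraries as well. Their summed level was 9034 CPM in IgG and 7247 in aPD-1, and of 17 of at least 10 CPM, 10 were counted as lower and 2 as higher, where 24.3% and 6.23% of all genes were. Fos and Jun are among the lower genes, and Fosl1 (39.1 to 57.1 CPM) and Ier3 (243 to 320 CPM) the higher ones. A thinned cell had a median of 43 UMIs of the 21 listed genes in IgG and 34 in aPD-1. The sum correlated with Klf4 at 0.43 in IgG and 0.39 in aPD-1, with Sox4 at 0.35 and 0.28, with Sox9 at 0.29 and 0.25, and with Myc at 0.22 and 0.18. With Sox2 the correlation was -0.023 in aPD-1 and nearer 0 in IgG. The list holds none of the 9 genes but holds 3 KLF genes, Klf2, Klf6 and Klf10. Given this sum, the partial r of Sox9 with Klf4 was 0.20 and 0.16, and those of Sox4 with Klf4 (0.06, 0.04) and Sox4 with Sox9 (0.10, 0.05) did not reach 0.1 in both.

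Cells of both libraries were then divided into 3 groups of like size by that sum, a split added after the data were seen. The high group took in 42.4% of the IgG and 25.7% of the aPD-1 cells. Sox4 was 280 and 278 CPM in the low group, 450 and 430 in the middle and 603 and 596 in the high group (IgG and aPD-1), so its ratios of 0.994, 0.957 and 0.987 were nearer 1 than the 0.878 of all cells. Klf4, at 0.966 in all cells, was above 1 in each group, at 1.27, 1.15 and 1.11. Sox9 ratios were 1.53 (interval 1.46 to 1.59) in the low, 1.33 in the middle and 1.11 (1.08 to 1.15) in the high group. Sox2 stayed above 1 (1.67, 1.41 and 1.30) and Clu below it (0.545, 0.516 and 0.622). Myc ratios were 0.888, 0.962 and 0.976, and those of Cd44 1.09, 1.11 and 1.14. The sum was itself measured in the same cells, and what sets it was not tested.

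**Figure D5:**
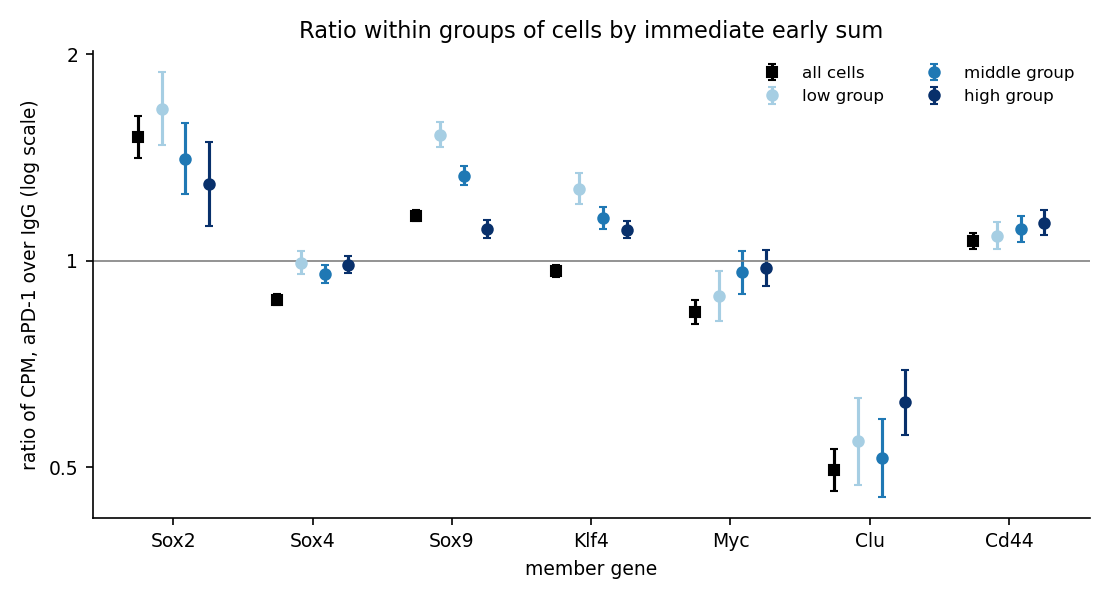
Ratio of CPM, aPD-1 over IgG (log scale), for 7 genes in all cells (squares) and within the low, middle and high group of cells by summed immediate early UMIs (circles). Bars are exact conditional 95% intervals. Sox2 lies above 1 and Clu below 1 in each group, while Klf4 lies at 0.966 in all cells and above 1 in each group.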

How the data were processed

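The authors deposited raw UMI counts for each gene and barcode. Per the file headers, Cell Ranger 3.0.2 made them. Build mm10 and Seurat 2.1.0 are named in the submitters' processing notes, and details of the annotation were not given in the sources used here. Of both files, the IgG one had been reduced to called cells and the aPD-1 file had not, so 1 rule (at least 5000 UMIs, at most 10% mitochondrial) was applied to both. No doublets were called or removed.

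Counts were summed over cells, and CPM, ratios and log2 ratios (pseudocount 1 CPM, which understates low genes) were computed. Intervals at 95% (exact Poisson for levels, Clopper-Pearson for shares, exact conditional binomial for ratios) cover counting error only. For shares, phases and r, cells were thinned to 5000 UMIs without replacement. Clusters used scanpy 1.11.5 and leidenalg 0.10.2 at resolution 0.5 on 2000 variable genes, 30 components and 15 neighbours, without the 9 genes. Gene positions came from GENCODE M21, in which no other gene's exons overlap those of the 9 genes on the same strand. The steps were checked on simulated counts.

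The members, lists and tests were chosen with earlier results of these data known. The genes named are the 9, for each of at least 10 CPM its 3 highest partners and 1 lowest by r, up to 4 extreme members of each list, and cluster leaders. Fos, Ly6a, Lgr5 and Epcam were named after their values were seen.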

Additional observations from a re-analysis of the deposited data

Results flagged for a closer look

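Some genes pointed opposite ways in different clusters, with counting intervals of the aPD-1 over IgG ratio on opposite sides of 1. The difference between clusters was not tested. Clu had a ratio of 1.21 in cluster 4 (Lbp, Gsn and Dcn) and 0.419 in cluster 0 (Mxd4, Osr2 and Zbtb20). Sox4 had 1.09 in cluster 2 (Cdc20 and Cenpe) and 0.698 in cluster 6 (Mx1 and Ifit1). Sox9 had 1.26 in cluster 1 (Rrm2 and Mybl2) and 0.837 in cluster 6. Klf4 had 1.31 in cluster 5 (Hist1h1b) and 0.872 in cluster 6. Clusters 5 and 6 held 70 and 62 IgG cells, and the clusters were made from the same cells.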

How the results depend on the processing

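Each result was recomputed with other floors on UMIs or mitochondrial share, without marked or very deep cells or cluster 4, and with other scalings. Sox2 and Clu were counted at 1.2-fold under every one of these settings, and 3 genes were counted when Sox9 joined (no ribosomal protein or mitochondrial UMIs in the total, or the median of all genes set to 0) or Myc joined (cells weighted equally). At 1.5-fold, 1 gene (Clu) was counted with at least 10000 UMIs per cell and with at most 5% mitochondrial UMIs. The median log2 ratio of the genes changed sign: it was -0.088 with at least 10000 UMIs, -0.12 with at most 5% mitochondrial, and 0.019 without cluster 4. It was 0.038 without ribosomal and mitochondrial UMIs, 0.047 with the median of all genes at 0, and 0.0093 with cells weighted equally. Sox2 stayed above 0 in 26 of 26 alternatives, within clusters, phases and immediate early groups included, and Clu stayed below 0 in 25 of 26, the exception being cluster 4 with a log2 ratio of 0.27. The lowest Sox2 value was 0.0092, within cluster 3. Genes that were not counted in the main setting also mostly kept their sign. Sox9 was above 0 in 25 alternatives and Cd44 in 24, and Sox4 was below 0 in 25 and Myc in 23. Klf4 was above 0 in 14 and below 0 in 12. The alternatives draw on the same 2 libraries. Weighting the aPD-1 clusters as in IgG gave log2 ratios of 0.52 for Sox2 and -0.54 for Clu. The pairs with r of at least 0.1 in both libraries numbered 5 with at most 20% mitochondrial UMIs, 12 unthinned, and 1 given the immediate early sum. They numbered 2, the pair of Sox4 with Sox9 being lost, with at least 10000 UMIs, thinned to 2000 UMIs, and given the S and G2/M scores. Sox9 with Klf4 was among them under each setting. With a floor of 3000 UMIs the pairs were not run, since cells could not be thinned to 5000. No paired analysis was possible because each group has 1 library, and none could be left out. Depth limits Klf5.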
